A study of Mus musculus with 54 samples.

Results

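The dual-specificity MAP kinase phosphatases described here are the 8 genes Dusp1, Dusp2, Dusp4, Dusp5, Dusp6, Dusp7, Dusp10 and Dusp16. They were taken by symbol from the deposited table of raw counts, which lists 16632 genes, and all 8 were in it. All 8 were also among the 13169 genes tested, although Dusp5 had more than 3 counts in only 17 of the 52 samples.

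MAP kinases are switched on when a threonine and a tyrosine in their activation loop are phosphorylated, and these phosphatases switch them off by removing both phosphates. Many of the phosphatase genes are themselves transcribed when MAP kinase signalling is active, so that the pathway limits its own output. In macrophages and microglia the family, and Dusp1 above all, is known for restraining p38 and JNK signalling and the cytokine transcripts that depend on it.

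The study followed primary microglia from neonatal C57BL/6 mice that had taken up alpha-synuclein, the protein that aggregates in Parkinson's disease, and then met untreated microglia. The cells came from mixed cultures of 2 brains per flask and were shaken off an astrocyte layer. Donor microglia carried Atto-488-labelled alpha-synuclein, given at 1 µM for 14 h. Acceptor microglia received no alpha-synuclein and were stained with CellTracer Violet. After co-culture for 15, 30, 60, 150 or 300 min the populations were separated again by flow cytometry. The 14 groups were untreated cells (6 libraries), alpha-synuclein donors that were not co-cultured (4 libraries), and donors and acceptors at 0, 15, 30, 60, 150 and 300 min (3 or 4 libraries each). The labels do not describe the 0 min cells, nor whether untreated cells and donors without co-culture went through the sorter, and they do not give the sex of the animals.

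Replicate numbers 1 to 4 run across the groups and are called experiments 1 to 4. The untreated libraries that share a number (2 and 4) were summed, leaving 52 samples. Experiment 4 has no 0 min samples, experiment 2 no donors at 60 min and experiment 3 no acceptors at 300 min. The labels do not say that the numbers stand for separate cultures or animals, so the p-values measure the spread between these samples. Passage goes with the number in the labels, at 3 in experiment 1, 1 in experiment 2 and 2 in experiments 3 and 4, so passage and experiment cannot be told apart. Library totals ran from 7807389 to 15537493 counts. Levels are CPM, counts scaled to a common library size by TMM, and differences are log2 values from edgeR. They were called at an adjusted p under 0.05, either without a term for experiment or with the experiment as a block.

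The 10 microglial markers, among them Tmem119, P2ry12 and Cx3cr1, were detected in every group. Their summed level was 1563 to 1837 CPM in the alpha-synuclein donors and co-cultured donors of experiment 4, and 3527 to 5565 CPM in donors of experiments 1 to 3. Experiment 4 was also lowest in untreated cells (3625 CPM, others 4182 to 4981) and in acceptors (3184 to 3566 CPM, others 4084 to 5255). The ribosomal precursor Rn45s took 13.4 to 22.3% of the counts in experiment 4 and 1.42 to 13.5% elsewhere. Results that rest on experiment 4 are therefore given with and without it. The 7 astrocyte markers summed to 10.4 to 135 CPM in untreated samples and 11.2 to 28.9 CPM in alpha-synuclein donors. The 6 oligodendrocyte-lineage markers summed to 115 to 566 and 78.3 to 238.9 CPM in the same groups.

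Promoter sequence was available for 7 of the 8 genes in RefSeq (GRCm38.p6), and 3 are shown because the results contrast their genes: Dusp1, the only member called without the block, Dusp7, which averaged lower in every donor group than in untreated cells or acceptors, and Dusp5, which was barely detected. The 250 bases before each start were searched on both strands for TGACGTCA (the full cAMP response element), TGACG (its shorter form), TGANTCA (the AP-1 site) and the CArG box bound by serum response factor. Capitals mark the matches.
Dusp1: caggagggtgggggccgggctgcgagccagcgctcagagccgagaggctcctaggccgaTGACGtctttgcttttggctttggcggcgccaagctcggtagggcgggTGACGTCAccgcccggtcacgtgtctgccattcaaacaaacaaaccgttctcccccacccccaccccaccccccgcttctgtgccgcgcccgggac
Dusp5: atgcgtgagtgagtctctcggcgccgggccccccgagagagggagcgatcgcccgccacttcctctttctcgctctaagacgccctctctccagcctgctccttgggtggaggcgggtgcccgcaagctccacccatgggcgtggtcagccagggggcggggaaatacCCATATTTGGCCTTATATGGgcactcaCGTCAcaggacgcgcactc
Dusp7: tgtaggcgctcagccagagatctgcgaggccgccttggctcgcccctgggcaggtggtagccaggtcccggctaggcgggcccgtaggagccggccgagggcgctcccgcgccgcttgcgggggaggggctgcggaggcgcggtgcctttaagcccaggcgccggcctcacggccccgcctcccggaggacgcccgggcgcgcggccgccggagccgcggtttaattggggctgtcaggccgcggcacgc
The printed stretches are chr17:26508520-26508722 on the minus strand for Dusp1, chr19:53528895-53529108 on the plus strand for Dusp5 and chr9:106368382-106368631 on the plus strand for Dusp7. The Dusp1 and Dusp5 stretches stop before the first annotated exon base met within the 250 bases. The Dusp1 start used lies inside the annotated span of the gene, which reaches further upstream to chr17:26562128.

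Dusp1 held 1 full cAMP response element, a match present in 1.55% of 32851 promoters searched over the same length. Its 3 matches to TGACG, a motif found in 17.8% of promoters, include both strands of that element. Dusp5 held 2 adjacent CArG boxes, against 1.47% of promoters with any, and 1 TGACG on the minus strand. Dusp16 held 1 TGACG. The AP-1 site, present in 6.75% of promoters, was found in none of the 7 windows, and Dusp2, Dusp6, Dusp7 and Dusp10 held none of the 4 motifs. The Dusp10 window begins inside an annotated exon, at chr1:184034131, within the annotated span of the gene. All motifs given are matches of letters only, and no binding was measured.

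The nuclear, inducible phosphatases are Dusp1, Dusp2, Dusp4 and Dusp5. Dusp1 (chr17:26505590-26562128, minus strand, GRCm38), which dephosphorylates p38, JNK and ERK, was high in alpha-synuclein donors and in both populations early in co-culture. Its group means ran from 128 CPM in untreated cells to 479 CPM in donors at 15 min, although the ranges of every pair of neighbours in that order overlapped. The gene lies opposite Ergic1, with which it shares exon sequence, but not within 1000 bases of its 3′ end, where these 3′ libraries place their reads.

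In experiments 1 to 4, Dusp1 stood at 134, 221, 102 and 56.8 CPM in untreated cells. Alpha-synuclein donors had 351, 249.95, 267.3 and 447 CPM in the same order. All 4 donor samples were above all 4 untreated samples, and experiment 4 held both the lowest untreated and the highest donor value. In bulk samples like these, fewer cells with a transcript and less transcript per cell cannot be told apart.

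Dusp1 rose by 1.36 on the log2 scale in alpha-synuclein donors over untreated cells (SE 0.33, adjusted p = 0.0178 in edgeR), 2.56-fold, and was higher in 4 of 4 experiments by 0.18 to 2.97. It was the 1 member of 8 called in this comparison, in which 2.50% of all genes were called. Without experiment 4 the difference was 0.93 (adjusted p = 0.0418). In the fit without the block, the call was lost without experiment 1 (adjusted p = 0.133) or experiment 3 (adjusted p = 0.109), with log2 differences of 1.36 and 1.35. It was also lost when only the groups compared were fitted (adjusted p = 0.166). With the block and without experiment 4, Dusp1 was called at 0.96 (adjusted p = 0.00159). No other experiment was left out of the blocked fit. Dusp1 was also the 1 of 8 members whose untreated and donor samples did not overlap, against 8.10% of all genes. Over the same contrast 0 of 7 astrocyte markers passed without the block and 5 of 7 were lower with it, and 3 of 6 oligodendrocyte-lineage markers were lower with it; their part in the result was not tested.

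**Figure D1:**
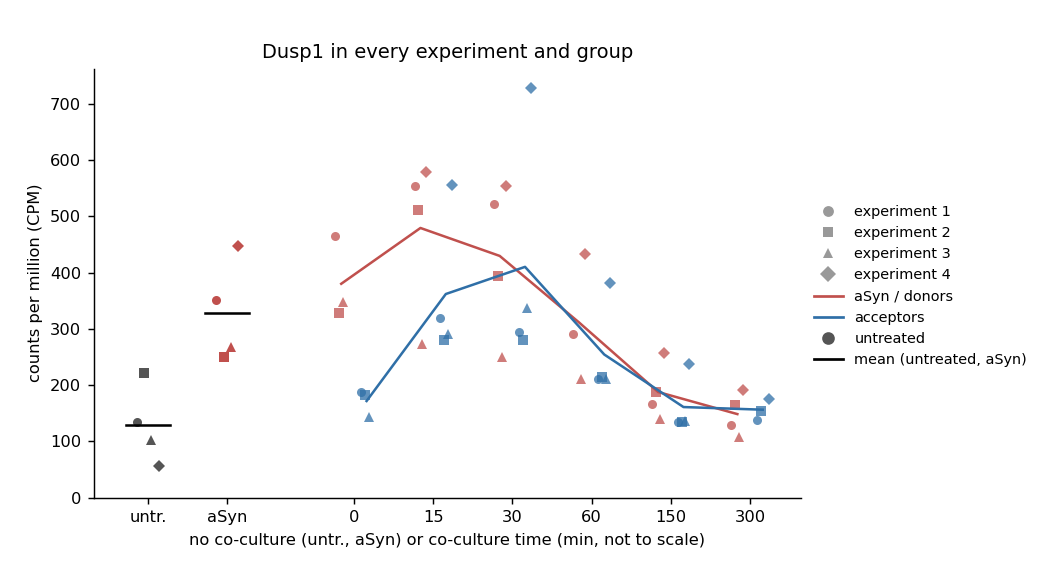
Dusp1 level in CPM (vertical axis) in each of the 14 groups (horizontal axis), with 1 point per sample marked by experiment and a line at each group mean. All alpha-synuclein donor samples lie above all untreated samples, and donors and acceptors are highest at 15 and 30 min and lower at 150 and 300 min.

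In donors, Dusp1 was high early in co-culture and fell by its end. At 0 min, Dusp1 stood at 464, 328 and 348 CPM in donors of experiments 1 to 3. At 15 min the 4 donor samples had 555, 512, 273 and 578 CPM. At 30 min they had 522, 394, 249.4 and 554 CPM. These early samples overlapped those of the donors before co-culture.

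At 60 min, donors of experiments 1, 3 and 4 had 291, 211 and 433 CPM of Dusp1. At 150 min the 4 donor samples had 166, 188, 140.4 and 256.7 CPM. By 300 min they stood at 129.9, 165, 107 and 192 CPM, each below every donor sample at 15 min and inside the range of untreated cells.

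Dusp1 fell by 1.69 on the log2 scale in donors between 15 and 300 min (SE 0.34, edgeR adjusted p = 0.0212), lower in 4 of 4 experiments by 1.35 to 2.09. It was the 1 member of 8 called in this contrast, in which 0.0759% of genes were called. With the block and without experiment 4 the change was -1.72 (adjusted p = 6.6e-06), and no other experiment was left out of that fit. Without the block, leaving out experiment 4 gave a change of -1.74 (adjusted p = 6.3e-04). It was not called without experiment 1 (adjusted p = 1), experiment 2 (adjusted p = 0.280) or experiment 3 (adjusted p = 0.159), where the log2 changes were -1.56, -1.71 and -1.76, nor when only the groups compared were fitted (adjusted p = 0.253). The F test over the 6 donor times called Dusp1, again 1 of 8 members (adjusted p = 0.0472), where 0.0607% of genes were called. That call was likewise lost without experiment 1 or 2 (adjusted p = 1 each) or 3 (adjusted p = 0.518), and held without experiment 4 (adjusted p = 6.0e-04). It also missed the threshold with RLE scaling (0.0597), no filter (0.0584), untreated libraries kept separate (0.0889) or only the groups compared (0.0833).

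Against alpha-synuclein donors that had not been co-cultured, Dusp1 was 1.15 lower on the log2 scale at 300 min, in 4 of 4 experiments. This difference was not called without the block (SE 0.33, edgeR adjusted p = 0.76) and was called with it (log2 -1.15, adjusted p = 0.0215). It was the 1 member of 8 called with the block, where 0.304% of genes were, against 0 of 8 members and 0.0304% of genes without it, with 4 members at an unadjusted p under 0.05. At 0, 15, 30, 60 and 150 min no member and no gene was called by edgeR against these donors, 0% of genes in each of the 5 comparisons in either fit. Members at an unadjusted p under 0.05 without the block numbered 0, 0, 0, 1 and 1 at those times. The 6 donor times share the same 4 alpha-synuclein donor samples.

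Acceptors, which had received no alpha-synuclein themselves, also had high Dusp1 early in co-culture. At 0 min they stood at 188, 183 and 144 CPM in experiments 1 to 3. At 15 min the 4 acceptor samples had 319, 281, 291 and 556 CPM. At 30 min they had 294, 281, 338 and 729 CPM, all above the 4 untreated samples. No group held acceptors co-cultured with cells free of alpha-synuclein. Meeting alpha-synuclein donors, staining and co-culture itself therefore cannot be told apart in comparisons with untreated cells.

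By 60 min, Dusp1 in acceptors was 210.2, 215, 211 and 381 CPM. At 150 min it was 134, 135, 137 and 238.05 CPM. Experiments 1, 2 and 4 had 138, 155 and 176 CPM at 300 min. From 60 min on the acceptors overlapped untreated cells, and experiment 4 was the highest acceptor sample at each of the 5 times for which it exists.

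At 30 min Dusp1 rose in acceptors over untreated cells by 1.67 on the log2 scale (edgeR, SE 0.34, adjusted p = 0.0212), 3.19-fold, in 4 of 4 experiments. It was the 1 member of 8 called both without the block, where 0.114% of genes were called, and with it, where 3.60% were. Leaving out experiment 4 lowered the difference to 1.00 (adjusted p = 0.0840). The call was also lost without experiment 1 (log2 1.83, adjusted p = 0.598) or experiment 3 (log2 1.66, adjusted p = 0.350), and when only the groups compared were fitted (adjusted p = 0.719). With the block and without experiment 4 it was called at 1.04 (adjusted p = 0.00265). Of the astrocyte and oligodendrocyte-lineage markers, 2 of 7 and 2 of 6 were lower with the block, with sums of 11.3 to 31.9 and 89.6 to 265.2 CPM at 30 min, and their part in the result was not tested.

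The 15 min difference of Dusp1 in acceptors was 1.49 on the log2 scale, in 4 of 4 experiments, and was called only with the block (edgeR adjusted p = 0.0901 without it, 0.00142 with it). There 0 of 8 members and 0% of genes were called without the block, 1 of 8 and 2.25% with it, and 1 member had an unadjusted p under 0.05 in the fit without it. Without experiment 4 the difference was 0.96 without the block (adjusted p = 0.182) and 0.99 with it (adjusted p = 0.00787). At 60 min it was 0.99, again called only with the block (adjusted p = 0.354 and 0.0318). Without experiment 4 the 60 min difference was 0.47 without the block (adjusted p = 0.630) and 0.50 with it (adjusted p = 0.180). The acceptor comparisons all share the untreated samples.

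The F test over the 6 acceptor times called Dusp1 only with the block (edgeR adjusted p = 0.343 and 0.00841). It was 1 of 8 members called there, where 0.137% of genes were, against 0 of 8 and 0.00759% without it, with 2 members at an unadjusted p under 0.05. Between 15 and 300 min in acceptors Dusp1 was 1.21 lower (adjusted p = 1) in 3 of 3 experiments. Between 0 and 15 min it was 1.08 higher in acceptors (adjusted p = 1, 3 of 3 experiments) and 0.34 higher in donors (adjusted p = 1). In these 3 contrasts no member and 0% of genes were called by edgeR in either fit, and 1, 1 and 0 members had an unadjusted p under 0.05.

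Whether donors and acceptors differed in how Dusp1 changed was tested directly, and no difference was called. The change between 15 and 300 min differed by -0.48 (SE 0.48, edgeR adjusted p = 1), donors minus acceptors. No member was called for that interaction in either fit, with 1 at an unadjusted p under 0.05, and 0% of genes were called without the block and 0.0152% with it. The F test over all times also called no member in either fit, with 0 at an unadjusted p under 0.05, and 0% of genes without the block and 0.0456% with it.

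Between donors and acceptors of the same time, Dusp1 was compared within each experiment, and a difference was called at 0 min with the block. The difference was 1.15 on the log2 scale, in 3 of 3 experiments by 0.84 to 1.30 (edgeR adjusted p = 0.305 without the block, 0.0119 with it). All 3 donor samples (328 to 464 CPM) were above all 3 acceptor samples (144 to 188 CPM). With experiment 4 left out of the fit, which removes none of these samples, it was called without the block as well (adjusted p = 0.0120). At 15, 30, 60, 150 and 300 min the log2 differences were 0.41, 0.07, 0.29, 0.22 and -0.07, and none was called in either fit.

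**Figure D2:**
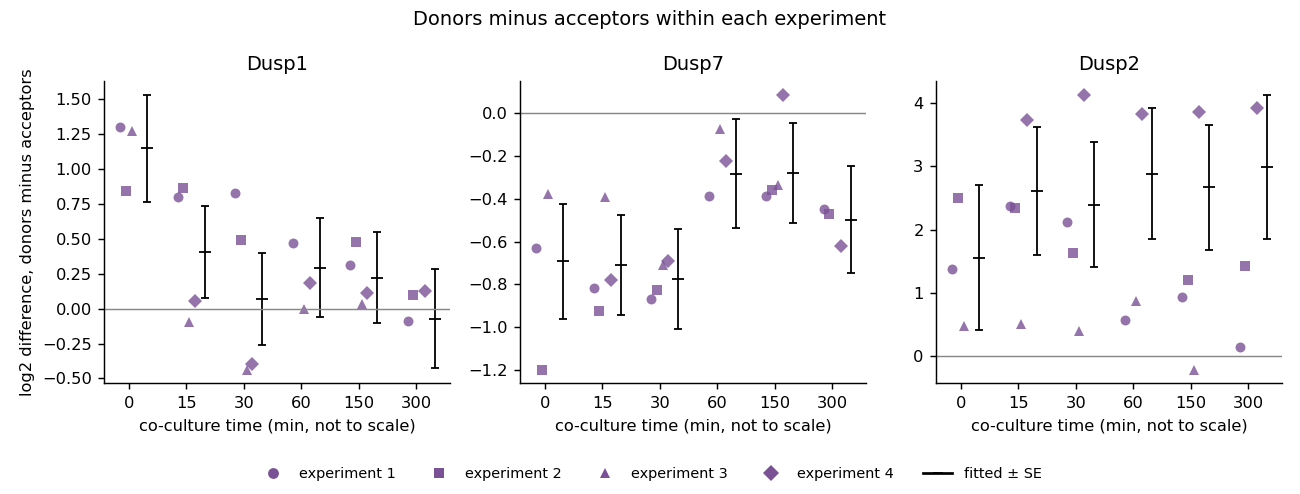
Log2 difference in CPM, donors minus acceptors of the same experiment (vertical axis), over the time of co-culture in min (horizontal axis), for Dusp1, Dusp7 and Dusp2, with 1 point per experiment. Dusp1 lies between 0.84 and 1.30 at 0 min and scatters around 0 at 30 min, Dusp7 is below 0 in every experiment up to 60 min, and Dusp2 is highest in experiment 4 from 15 min on.

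Dusp2 (chr2:127336159-127338376, plus strand), a nuclear phosphatase known from activated immune cells, was highest in the donors of experiment 4. Untreated cells had 2.93, 12.5, 6.00 and 1.32 CPM in experiments 1 to 4. Alpha-synuclein donors had 6.04, 13.6, 7.08 and 61.5 CPM. The donor samples of experiments 1 and 3 lay inside the untreated range, that of experiment 2 just above it and that of experiment 4 far above it.

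In co-cultured donors of experiment 4, Dusp2 stood at 75.5, 84.6, 136, 174 and 167 CPM at 15, 30, 60, 150 and 300 min. Donors of experiments 1 to 3 ranged from 9.98 to 33.2 CPM at 15 min and from 3.53 to 12.6 CPM at 300 min. Acceptors stayed between 2.80 and 11.9 CPM in all experiments and times. Every donor sample at 15 and 30 min was above every acceptor sample of the same time.

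Dusp2 in alpha-synuclein donors differed from untreated cells by 1.94 on the log2 scale (edgeR, SE 0.98, adjusted p = 0.302), and by 0.31 without experiment 4 (adjusted p = 0.848). Donors at 15 min were 2.61 above acceptors (SE 1.01, adjusted p = 0.260), in 4 of 4 experiments by 0.50 to 3.74. With the block this was called at 2.28 (adjusted p = 0.0347), and also with the block and without experiment 4, at 1.94 (adjusted p = 0.00310). At 30, 60, 150 and 300 min the differences of 2.39, 2.89, 2.67 and 3.00 were not called in either fit over all experiments. Without experiment 4 they were 1.27, 1.01, 0.59 and 1.31, and that at 30 min was called with the block at 1.37 (adjusted p = 0.0318). Microglial markers were lower in the donors of experiment 4, as given above. S100a8, the 1 of 3 neutrophil markers in the table, stood at 4.203 to 8.46 CPM in the alpha-synuclein donors and co-cultured donors of experiment 4, at 0 to 1.60 CPM in donors of experiments 1 to 3 and at 0.405 to 1.18 CPM in acceptors of experiment 4. The part of either marker list in these differences was not tested.

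Dusp4 (chr8:34807297-34819894, plus strand), a nuclear phosphatase of ERK and JNK, was low and was not called in any of the 27 tests in either fit. Its samples ran from 3.70 to 21.1 CPM, with group means from 5.97 CPM in donors at 300 min to 13 CPM in acceptors at 30 min. Untreated cells had 11.7, 7.15, 9.86 and 16.7 CPM and alpha-synuclein donors 9.28, 7.46, 12.1 and 15.1 CPM in experiments 1 to 4, which overlapped throughout. The log2 difference between them was -0.05 (SE 0.39, edgeR adjusted p = 0.97), and its sign changed when experiment 1 (0.06) or experiment 4 (0.02) was left out. Dusp4 at 300 min was 1.05 lower in donors than acceptors (SE 0.42, adjusted p = 0.673), in 3 of 3 experiments, with a difference of -0.65 without experiment 4.

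Dusp5 (chr19:53529109-53542431, plus strand), the nuclear phosphatase selective for ERK, had 188 counts over all 52 samples. Untreated cells had 0, 0, 0 and 4 counts and donors at 300 min had 0 counts in all 4 samples. Donors at 0 min had 6, 5 and 11 counts, and acceptors at 0 min 0, 2 and 0. The highest sample was that of acceptors at 60 min in experiment 4, with 31 counts (2.87 CPM), where the other acceptors at that time had 0, 0 and 2. No test called Dusp5. Its exons overlap those of an antisense gene, AC137853.2, and whether the counting used strand is not given. With so few counts most differences were not detectable at this depth, and a group at or under 3 counts in every sample gives no fold.

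**Figure D3:**
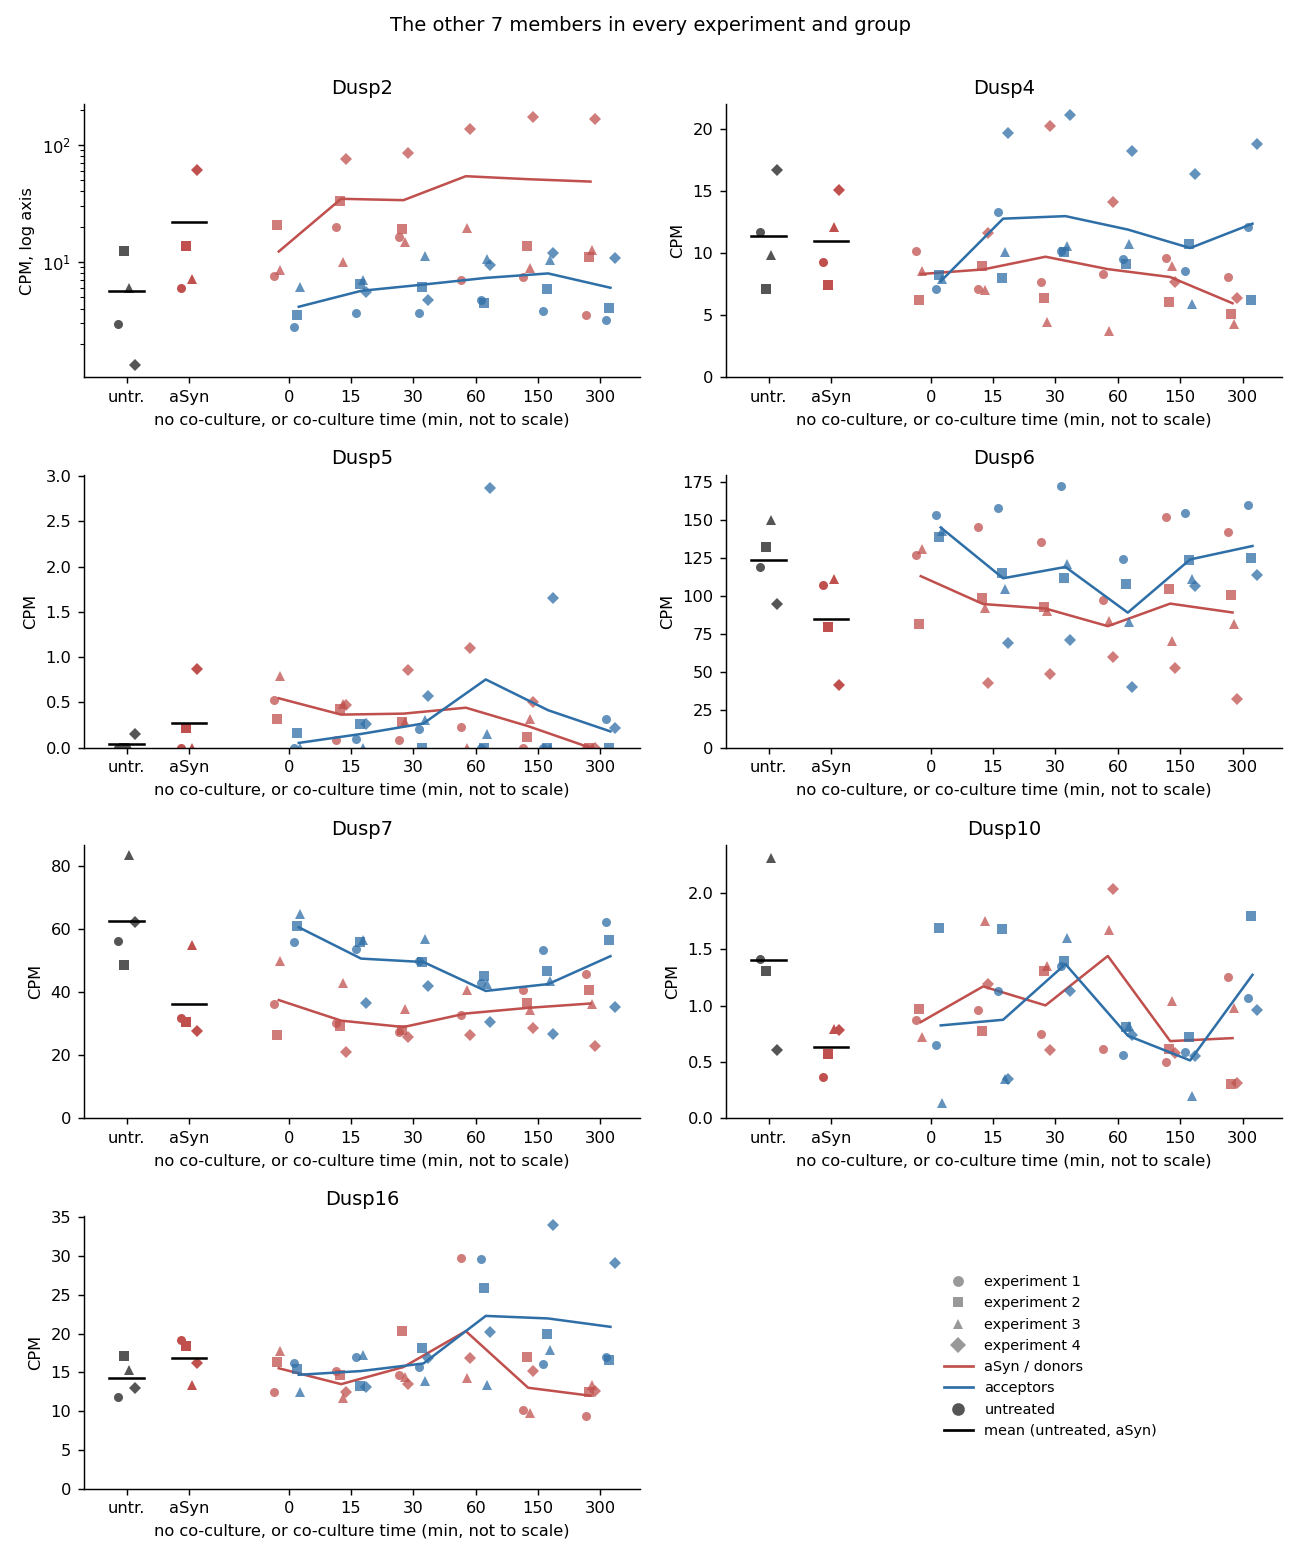
Levels in CPM of the 7 other members (vertical axes, with a log axis for Dusp2) in each of the 14 groups, with 1 point per sample marked by experiment and a line at each group mean. Dusp2 in the donors of experiment 4 lies above the other experiments, Dusp7 is lower in donors than in untreated cells and acceptors, and Dusp5 and Dusp10 lie close to 0.

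The cytoplasmic phosphatases Dusp6 and Dusp7, which act mainly on ERK, were lower in alpha-synuclein donors in 4 of 4 experiments, called only with the block, and for Dusp6 not without experiment 4. Dusp7 (chr9:106368632-106375724, plus strand) stood at 56.3, 48.6, 83.5 and 62.4 CPM in untreated cells. Alpha-synuclein donors had 32, 30.6, 55.0 and 27.8 CPM. The donor sample of experiment 3 overlapped the untreated range, and the other 3 were below it.

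Dusp7 in alpha-synuclein donors differed by -0.78 on the log2 scale (edgeR, SE 0.23, adjusted p = 0.0605), and fell by 0.82 in the fit with the block (adjusted p = 2.1e-04), in 4 of 4 experiments. Without experiment 4 the values were -0.66 (adjusted p = 0.0828) and, with the block, called at an adjusted p of 0.00820. With the block 3 of 8 members were called in this comparison, Dusp1 higher and Dusp6 and Dusp7 lower, where 19.2% of all genes were called.

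Dusp6 (chr10:99263231-99267489, plus strand) had 119, 132, 150.1 and 95.2 CPM in untreated cells and 107, 79.5, 112 and 41.7 CPM in alpha-synuclein donors. Only the donor samples of experiments 2 and 4 were below all untreated samples. The log2 difference was -0.54 (SE 0.37, edgeR adjusted p = 0.469) and was called only with the block (-0.64, adjusted p = 0.0198), lower in 4 of 4 experiments. Without experiment 4 it was -0.41 (adjusted p = 0.478), and not called with the block either (-0.44, adjusted p = 0.0958). Dusp6 was called in no other test, and its group means ran from 80.2 CPM in donors at 60 min to 145 CPM in acceptors at 0 min.

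**Figure D4:**
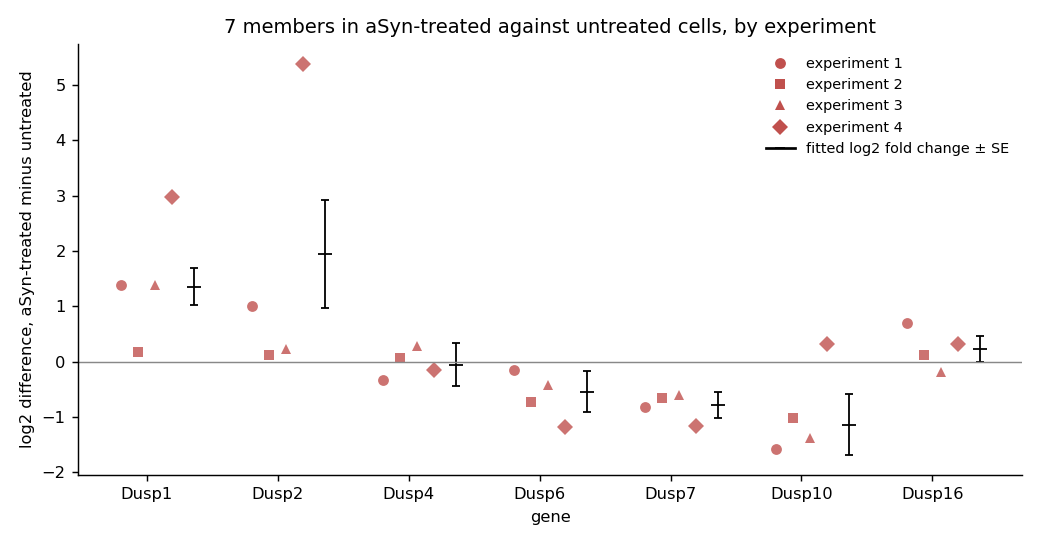
Log2 difference in level, alpha-synuclein donors minus untreated cells (vertical axis), for 7 members (horizontal axis). There is 1 point per experiment, with the fitted value and its standard error beside them. Dusp1 is above 0 and Dusp6 and Dusp7 are below 0 in 4 of 4 experiments, and experiment 4 lies far above the others for Dusp2. Dusp5 is left out because of its few counts.

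Dusp7 stayed low in donors throughout co-culture. At 0 min donors had 36.2, 26.4 and 50.0 CPM. At 15 min they had 30.4, 29.4, 42.9 and 21.2 CPM. At 30 min, the lowest group mean (29.0 CPM), they had 27.2, 27.9, 34.8 and 25.9 CPM. None of the donor groups differed from the alpha-synuclein donors by more than 0.33 on the log2 scale, and none was called.

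Acceptors at 0 min had 56.0, 60.9 and 65.0 CPM of Dusp7. At 15 min they had 53.7, 56.1, 56.4 and 36.5 CPM. At 30 min they had 49.9, 49.6, 57.0 and 41.9 CPM. All acceptor samples at 0 and 30 min were above all donor samples of the same time, and at 15 min the acceptor sample of experiment 4 overlapped the donors.

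Dusp7 was lower in donors than acceptors by 0.69 at 0 min, 0.71 at 15 min and 0.78 at 30 min (SE 0.27, 0.23 and 0.23), in every experiment. None of these was called without the block (edgeR adjusted p = 0.444, 0.169 and 0.119) and each was called with it (adjusted p = 0.0134, 0.00201 and 9.7e-04). Without experiment 4 the 30 min difference was -0.79 and was called without the block (adjusted p = 0.0452), and all 3 were called with it (adjusted p = 0.00586, 0.0105 and 0.00281). At 60, 150 and 300 min the differences were -0.28, -0.28 and -0.50 and were not called in either fit. The change of this difference over time was not called for Dusp7 (F test, adjusted p = 1).

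Acceptors themselves came to lie below untreated cells in Dusp7 at 60 min (43.0, 45.3, 42.7 and 30.7 CPM, all below the 4 untreated samples). The difference was -0.63 on the log2 scale and was called only with the block (edgeR adjusted p = 0.428 and 0.0113). At 150 min it was -0.56, called only with the block (adjusted p = 0.493 and 0.0204). Both block calls were lost without experiment 4 (log2 -0.52 and -0.39 without the block, adjusted p = 0.111 and 0.271 with it).

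Across the remaining acceptor times few members were called. At 60 min 0 of 8 members were called without the block, with 4 at an unadjusted p under 0.05, and 2 with it (Dusp1 higher, Dusp7 lower), where 0.0683% and 4.0% of genes were called. At 150 min 0 of 8 were called without the block, with 3 at an unadjusted p under 0.05, and 1 with it (Dusp7), against 0.137% and 4.78% of genes. At 0 min no member was called by edgeR in either fit and none had an unadjusted p under 0.05 without the block, against 0% and 0.995% of genes. At 300 min no member was called in either fit, with 1 at an unadjusted p under 0.05, against 0% and 0.623% of genes.

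The phosphatases of JNK and p38 are Dusp10 and Dusp16. Dusp10 (chr1:184013302-184075636, plus strand) had 2 to 30 counts per sample, 0.136 to 2.31 CPM, and was above 3 counts in 50 of 52 samples. Untreated cells had 14, 30, 27 and 16 counts of Dusp10 and alpha-synuclein donors 5, 8, 10 and 9. On the CPM scale the groups overlapped, at 0.603 to 2.31 and 0.368 to 0.795 CPM. The log2 difference of -1.14 (SE 0.55) did not pass (edgeR adjusted p = 0.273, with the block 0.147), and no other test called Dusp10.

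Dusp16 (chr6:134715468-134792625, minus strand), which prefers JNK, had group means from 12 CPM in donors at 300 min to 22.3 CPM in acceptors at 60 min, with donors at 60 min at 20.3 CPM. In acceptors at 150 min it was 0.62 above untreated cells on the log2 scale, which was not called in either fit (edgeR adjusted p = 0.426, with the block 0.105), and 0.28 above them without experiment 4. Untreated cells had 11.8, 17.1, 15.3 and 13 CPM. At 150 min donors had 10.1, 17.0, 9.77 and 15.2 CPM, and acceptors 16.0, 20, 17.9 and 34.0 CPM. The groups overlapped, while within each of the 4 experiments the acceptor sample was higher.

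Dusp16 at 150 min was 0.75 lower in donors than acceptors on the log2 scale (edgeR, SE 0.24, adjusted p = 0.216) and was called only with the block (adjusted p = 0.0374). Without experiment 4 it was -0.54 (adjusted p = 0.692) and not called with the block (-0.56, adjusted p = 0.217). At 300 min the difference was -0.80 in 3 of 3 experiments, with no overlap between the groups, and was not called (adjusted p = 0.448, with the block 0.106). It was -0.51 without experiment 4.

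Between donors and acceptors of the same time, no member was called without the block. At 0 min the unblocked count was 0 of 8, with 2 at an unadjusted p under 0.05, and 2 of 8 were called with the block (Dusp1 higher, Dusp7 lower), against 0.251% and 4.28% of genes. Samples of 5 of 8 members did not overlap at that time (Dusp1, Dusp2 and Dusp5 higher in donors, Dusp6 and Dusp7 lower), where 16.8% of all genes did not overlap. Each group had 3 samples, and Dusp5 rests on 6, 5 and 11 counts in donors against 0, 2 and 0 in acceptors. At 15 min 0 of 8 were called, with 2 at an unadjusted p under 0.05, and 2 with the block (Dusp2 higher, Dusp7 lower), against 0.888% and 9.57% of genes.

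At 30 min 0 of 8 members were called between donors and acceptors, with 2 at an unadjusted p under 0.05, and 1 with the block (Dusp7), against 0.805% and 10.8% of genes. The counts at 60 min were 0 in both fits, with 1 member at an unadjusted p under 0.05, against 0.418% and 6.70% of genes. At 150 min 0 of 8 were called, with 2 at an unadjusted p under 0.05, and 1 with the block (Dusp16), against 0.167% and 5.19% of genes. At 300 min no member was called in either fit, with 3 at an unadjusted p under 0.05, against 0.0304% and 1.38% of genes.

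Over time within donors, the block changed little for the members. With it, 1 of 8 members (Dusp1) was called between 15 and 300 min, where 0.744% of genes were, and 1 of 8 (Dusp1) by the F test over donor times, where 0.577% of genes were. Over all 27 tests of each of the 8 members, 4 of 216 were called without the block, all of Dusp1. With it 18 were called, of which 9 were of Dusp1 and 6 of Dusp7. The share of all genes called in a single test ran from 0 to 2.50% without the block and from 0 to 19.2% with it. The tests share samples and overlap, so these totals are not counts of separate results.

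**Figure D5:**
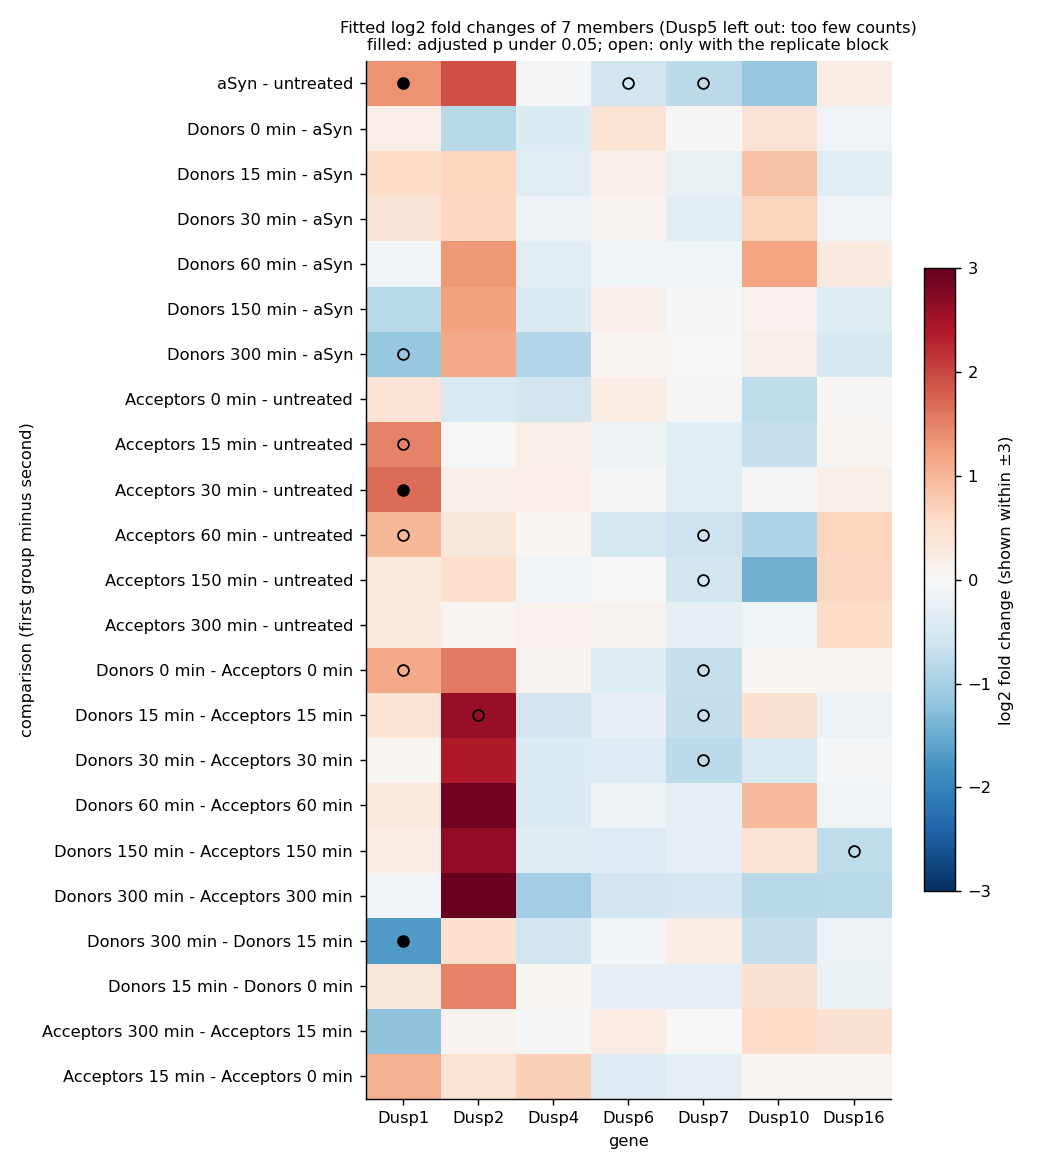
Log2 differences of 7 members (columns) in 23 comparisons between groups (rows), in colour within ±3. A filled dot marks an edgeR adjusted p under 0.05, and an open dot one reached only with the experiment as a block. Filled dots stand only in the column of Dusp1, and open dots are most frequent in the columns of Dusp1 and Dusp7. Dusp5 is left out because of its few counts.

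Other genes of the pathway were read from whole lists, and in alpha-synuclein donors their counts stand beside 2.50% of all genes called without the block and 19.2% with it. Of 17 other MAP kinase phosphatases and atypical dual-specificity phosphatases, 14 were tested and 1 rose in alpha-synuclein donors, Dusp18, from 3.99 ± 2.03 to 14.8 ± 5.97 CPM (SD, n = 4 each, log2 1.89, SE 0.39, edgeR adjusted p = 0.00333). With the block 2 were higher and 2 lower, among them Dusp23 (log2 0.73, adjusted p = 5.7e-04) and Dusp8 (log2 -1.49, adjusted p = 0.0354). The median log2 difference was 0.01 in this list and 0.09 over the 8 members, beside -0.04 over all genes tested. In donors between 15 and 300 min none of the 14 was called without the block, and Dusp18, lower by 1.22, was not called (adjusted p = 0.539) except with the block (adjusted p = 0.0188).

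Of 16 other feedback inhibitors of MAP kinase signalling, 14 were tested, and 1 rose and 1 fell in alpha-synuclein donors. Spred1, which blocks the activation of Raf by Ras, fell by 1.02 on the log2 scale, from 183 ± 14.2 to 90.4 ± 10.1 CPM (SD, n = 4 each, edgeR adjusted p = 0.0025). Trib3, a pseudokinase of the stress response, rose by 2.14 (adjusted p = 0.00521). With the block 1 was higher and 3 lower, the added genes being Spry2 (log2 -1.20) and Rasa1 (log2 -0.94), both restraints on the Ras pathway. The median of this list was -0.70.

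Of 12 transcripts often read as targets of ERK activity, 11 were tested and 2 fell in alpha-synuclein donors, Etv5 (log2 -1.18, edgeR adjusted p = 0.00498) and Ccnd1 (log2 -2.65, adjusted p = 0.00899). With the block 1 was higher and 4 lower, and Spry2 is in this list as well as in the previous one. The list's median was -0.76. In the same contrast the astrocyte markers summed to a median of 47.3 CPM in untreated cells and 15.0 CPM in donors, with overlapping ranges. The oligodendrocyte-lineage markers had medians of 196 and 131 CPM, also with overlapping ranges. The part of either marker list in the results of this list and the previous one was not tested. Etv5 was also lower in acceptors at 150 min than in untreated cells (log2 -1.14, adjusted p = 0.0409). It was the 1 called of the 11, where 0.137% of all genes were called. Of 34 MAP kinases and their upstream kinases, 32 were tested and 1 fell in alpha-synuclein donors, the stress kinase Map3k20 (log2 -0.98, adjusted p = 0.00982), with 5 higher and 3 lower in the fit with the block and a median of 0.07. These counts of 1 and 8 of 32 are near the 2.50% and 19.2% of all genes.

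Of 20 immediate early transcription factors, all tested, 4 rose in alpha-synuclein donors. Klf4 rose by 2.85 (edgeR adjusted p = 1.8e-04), Klf2 by 2.61 (adjusted p = 2.7e-04), Fosb by 2.55 (adjusted p = 0.0126) and Ier3 by 3.08 (adjusted p = 0.0463) on the log2 scale. The list's median was 0.58. With the block 6 were higher and 2 lower.

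Between 15 and 300 min in donors, the interval in which Dusp1 fell, 3 of these 20 genes fell and none rose. There 0.0759% of all genes were called. Klf2 fell by 3.14 (edgeR adjusted p = 4.8e-05), Fosb by 3.40 (adjusted p = 0.00787) and Ier2 by 1.68 (adjusted p = 0.0212). With the block 8 were lower, where 0.744% of all genes were called. The median of the list was -1.31 beside 0.02 over all genes. Zfp36, which destabilises cytokine transcripts, was 1.33 lower (adjusted p = 0.103, with the block 0.0194).

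The genes most like each member were found by Pearson's r of log2 CPM over the 52 samples after each experiment's mean was subtracted. These samples share experiments, library depth and preparation, so r is given as a description. For Dusp1 they were Ppp1r15a (0.83), Fosb (0.82) and Junb (0.81), which remained among the 5 highest when no experiment mean was subtracted. In donors at 15 and 300 min, Junb averaged 419 and 187 CPM and Ppp1r15a 74.1 and 38.8 CPM. For Dusp7 they were Spred1 (0.88), Serpinb6b (0.88) and St3gal6 (0.84). When no experiment mean was subtracted, Spred1 ranked 44 and Serpinb6b 2093, and St3gal6 had an r of 0.66. Spred1, like Dusp7, averaged less in donors at 30 min (79.1 CPM) than in acceptors (148 CPM).

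For Dusp2 the likest genes were H2-Q7 (0.92), Ppp4r2 (0.91) and H2-Q5 (0.90), and without the subtraction they ranked 32, 22 and 78. H2-Q7 and H2-Q5 are closely related copies whose reads the counting could have divided. For Dusp6 they were Mrpl33 (0.73), Knstrn (0.71) and Nek6 (0.70), and for Dusp4 Jmjd1c (0.67), Dusp3 (0.66) and Tmtc4 (0.64). Dusp16 was most like Arih2 (0.63), Nlrp3 (0.60) and Ssh2 (0.58). The highest values for Dusp5 and Dusp10, which rest on few counts, were 0.66 (Vegfa) and 0.52 (Penk). When no experiment mean was subtracted, Dusp3 ranked 1, Jmjd1c 317 and Tmtc4 1936 for Dusp4, Mrpl33 ranked 2, Knstrn 163 and Nek6 1568 for Dusp6, and Arih2, Nlrp3 and Ssh2 ranked 7, 6 and 3 for Dusp16. For Dusp5 and Dusp10, Vegfa ranked 53 and Penk 64.

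Among the members themselves, Dusp6 and Dusp7 varied together over the 52 samples (r = 0.66). Dusp2 ran against Dusp7 (r = -0.75), Dusp6 (r = -0.58) and Dusp4 (r = -0.53), and Dusp1 against Dusp7 (r = -0.49). Dusp1 had an r of 0.49 with Dusp5, which rests on few counts, and of 0.42 with Dusp2.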

How the data were processed

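RNA was measured in 54 libraries by QuantSeq, a method that primes at the poly(A) tail and reads the 3′ end of transcripts, as 50 bp single reads, per the labels' protocols. A table of unnormalized counts by gene symbol, deposited by the authors, was used. A second deposited table of normalized values was not used. STAR, Partek, DESeq2 and the build mm10 are named in the submitters' processing notes with no role, and the annotation and use of strand are not given in the sources used here.

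Untreated libraries sharing a replicate number were summed, since they differed least (chi-square per degree of freedom 10.3 and 12.1, against 24.2 to 288 for other pairs), although by more than counting error alone. Genes were filtered with filterByExpr (minimum count 10), scaled with TMM and fitted over all 14 groups in edgeR 4.0.16 (R 4.3.3). Its quasi-likelihood F test was used, with Benjamini-Hochberg adjustment over the 13169 genes tested. The main fit had no block and so ignored the pairing by replicate number. The fit with replicate number as a block was the alternative. The common coefficient of variation between samples was 38.1% without the block and 21.0% with it. Same-numbered samples deviated together (mean r 0.34 to 0.59 over 23 comparisons, lowest pair 0.20). The numbers, taken from the titles, were therefore treated as pairs in the blocked fit and in differences within experiments. Other alternatives were DESeq2 1.42.0, RLE scaling, no filter, removal of Rn45s, only the groups compared, untreated libraries kept separate, and leaving out each experiment. The scripts were tested on simulated data.

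CPM use a prior count of 2 on the log2 scale. A limit of 3 counts marked detection. Gene positions come from the GENCODE annotation of GRCm38 and promoters from RefSeq (GRCm38.p6). Named genes were the 8 members, the 3 genes most like each, and up to 4 genes per pathway list and comparison with the smallest unadjusted p. For the markers, the list of each cell type was summed. The members and lists were chosen with earlier results of these data known.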

Additional observations from a re-analysis of the deposited data

Results flagged for a closer look

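In 16 of 79 groups of 4 samples, the highest or lowest sample of a member stood apart from the other 3. The rule flags about 1 in 20 groups of independent, normally distributed values. CPM need not be so distributed, and the 79 groups share the same 4 experiments, so this rate does not measure chance here. Of the 16 samples, 13 were of experiment 4.

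For Dusp1, experiment 4 was the sample apart in acceptors at 15 min (556 CPM, others 281 to 319), 30 min (729 CPM, others 281 to 338), 60 min (381 CPM, others 210.2 to 215) and 150 min (238.045 CPM, others 134 to 137). For Dusp2 it was so in alpha-synuclein donors (61.5 CPM, others 6.04 to 13.6) and in donors at 30 min (84.6 CPM, others 14.7 to 19.1), 150 min (174 CPM, others 7.45 to 13.7) and 300 min (167 CPM, others 3.53 to 12.6). For Dusp4 it was the high sample of acceptors at 30 min (21.1 CPM, others 10.1 to 10.6), and for Dusp7 the low one of acceptors at 15 min (36.5 CPM, others 53.7 to 56.4).

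Dusp5 had a high sample in experiment 4 in untreated cells (0.151 CPM, others at 0), acceptors at 60 min (2.87 CPM, others 0 to 0.149) and acceptors at 150 min (1.66 CPM, others at 0). In donors at 15 min its low sample was experiment 1 (0.0876 CPM, others 0.423 to 0.479), which held 1 count. Dusp7 in alpha-synuclein donors was high in experiment 3 (55.0 CPM, others 27.8 to 32). Dusp16 in donors at 30 min was high in experiment 2 (20.3 CPM, others 13.5 to 14.6).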

How the results depend on the processing

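Followed under 12 settings were 44 results of single members. They had an unadjusted p under 0.05 without the block, a call with it, or compared alpha-synuclein donors with untreated cells. Only 4, all of Dusp1, were called in the main fit. Of 509 values, 457 kept their direction and side of the threshold, 31 gained a call and 18 lost one. The 18 losses all fell on those 4 Dusp1 results, in 3, 4, 4 and 7 of 12 settings. Sign changed in 3 values, all of Dusp4 in alpha-synuclein donors (-0.05). Its value was 0.058 without experiment 1, 0.02 without experiment 4 and -0.16 without experiment 3, and 0.046 with the block and without experiment 4. RLE scaling moved the median of all genes by at most 0.02 on the log2 scale.

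Members called in alpha-synuclein donors numbered 1, and 3 with the block, 2 with untreated libraries kept separate, 2 with the block without experiment 4, 2 by DESeq2, 0 with only the groups compared, and 0 to 1 leaving out an experiment. In donors at 300 min against them the 0 became 1 with the block, with or without experiment 4. In acceptors at 15 min the 0 became 1 with the block (also without experiment 4), with separate untreated libraries and by DESeq2. At 30 min the 1 became 0 with only the groups compared, and 0 to 1 leaving out an experiment. With the block the 0 became 2 at 60 min and 1 at 150 min.

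Between donors and acceptors the 0 became 2 with the block at 0 min (3 without experiment 4, 0 to 1 leaving out an experiment), 2 at 15 min (2), 1 at 30 min (2, and 0 to 1) and 1 at 150 min. The 1 called in donors between 15 and 300 min became 0 with only the groups compared and 0 to 1 leaving out an experiment. The 1 called over donor times became 0 with RLE scaling, no filter, separate untreated libraries or only the groups compared, and 0 to 1 leaving out an experiment. The 0 over acceptor times became 1 with the block (also without experiment 4) and by DESeq2. The block changed no other count of members. Depth limits Dusp5 and Dusp10 most, and with 3 or 4 samples a group small differences could not be detected.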
